A study of Homo sapiens with 6 samples.

Results

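The 10 genes described here are transcriptional outputs and feedback inhibitors of the ERK pathway: DUSP4, DUSP5, DUSP6, SPRY2, SPRY4, SPRED1, ETV4, ETV5, EGR1 and IER2. They were taken by gene name from a table of 60612 genes, in which each name stood once, and 9 of them were among the 13984 genes expressed highly enough to be tested. RNA was measured in SH-SY5Y, an established human neuroblastoma cell line, in 3 libraries infected with a control vector, called stuffer in the labels, and 3 libraries infected to overexpress CDKN2B-AS1, a long noncoding RNA antisense to CDKN2B. The column names tag the control libraries LVx1 and the others LVx2, which no label explains, and what those tags stand for cannot be told apart from the labelled overexpression. Whether replicates were separate cultures is not stated, so the p-values here reflect only the variation among these 6 libraries and may describe technical spread.

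Growth factors bind receptor tyrosine kinases, which activate RAS, RAF, MEK and finally the kinase ERK. Active ERK phosphorylates transcription factors already present in the nucleus, and immediate early genes such as EGR1 and IER2 are transcribed within minutes. Dual-specificity phosphatases, Sproutys and SPREDs are induced later and restrain the same cascade, so their messages are commonly read as a record of sustained pathway activity. In neuroblastoma cells the pathway lies downstream of receptors such as ALK and TRKA and takes part in both proliferation and neuronal differentiation.

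CDKN2B-AS1 itself was too low to be tested, at 0.338, 0.304 and 0.353 FPKM in labelled overexpression replicates 1, 2 and 3. FPKM is a fragment number divided by gene length and by the library's assigned total. Its control levels were 0.272, 0.288 and 0.191 FPKM, all of them lower, and no library of either group reached 1 FPKM. The groups are therefore called labelled overexpression and control vector throughout, and every direction is that of the first against the second. Depth ran from 29048596 to 45102020 fragments in control vector and from 20466583 to 48996425 fragments in labelled overexpression libraries. Of 13 markers of adrenergic neuroblastoma identity 12 were tested, with summed levels of 1315 to 1462 and 1416 to 1544 FPKM in control vector and labelled overexpression libraries. None passed an adjusted p of 0.05, where 1.14% of all tested genes did, but GAP43, GATA3 and GATA2 were higher and STMN2 lower without overlap, 4 of the 12 against 24.1% of all tested genes. The part of these markers in the results below was not tested. TH, the tyrosine hydroxylase of catecholamine synthesis, was the exception to the labelled identity, at 0 in 4 of the 6 libraries. Epithelial markers summed to at most 1.37 FPKM and immune markers to at most 1.93 FPKM in a library, with KRT5, KRT14, PTPRC, CD3E and MS4A1 at 0 in all 6. Fibroblast markers summed to 47.4 to 58.9 FPKM in control vector and 48.9 to 57.3 FPKM in labelled overexpression libraries, led by LUM and THY1, with FAP at 0 in 4 libraries. Schwann and glial markers summed to 3.33, 3.93 and 6.93 FPKM in the controls and 3.35 to 3.67 FPKM in the others, most of it S100B.

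The promoters of 3 members are shown, whose levels did not overlap between the groups and whose windows from RefSeq's table of GRCh38.p14 were kept. Not every member had a window kept, and a missing window says nothing of what RefSeq holds or of motifs. Each line gives the 250 bases before an annotated transcription start, read 5′ to 3′ on the gene's strand. EGR1 lies at chr5:138465229-138465478 on the plus strand, IER2 at chr19:13150161-13150410 on the plus strand and SPRY4 at chr5:142324248-142324497 on the minus strand. The SPRY4 window lies within the span of its gene, which reaches 142326455, so it precedes an internal start. Capitals mark matches on either strand to the CArG box bound by serum response factor, to CCGGAAG, a motif of ETS factors, or to TGACGT, the core of the cyclic AMP response element. No capitals of different motifs overlap.
EGR1: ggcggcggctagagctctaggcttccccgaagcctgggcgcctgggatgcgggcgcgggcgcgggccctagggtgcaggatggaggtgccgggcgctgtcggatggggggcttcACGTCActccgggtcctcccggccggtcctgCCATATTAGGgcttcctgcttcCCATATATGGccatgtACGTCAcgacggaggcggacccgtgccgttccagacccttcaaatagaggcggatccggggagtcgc
IER2: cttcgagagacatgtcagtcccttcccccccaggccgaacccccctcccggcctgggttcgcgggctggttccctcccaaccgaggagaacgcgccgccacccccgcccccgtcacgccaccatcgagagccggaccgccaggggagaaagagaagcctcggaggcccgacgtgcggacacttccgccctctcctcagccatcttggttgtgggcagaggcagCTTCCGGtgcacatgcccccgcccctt
SPRY4: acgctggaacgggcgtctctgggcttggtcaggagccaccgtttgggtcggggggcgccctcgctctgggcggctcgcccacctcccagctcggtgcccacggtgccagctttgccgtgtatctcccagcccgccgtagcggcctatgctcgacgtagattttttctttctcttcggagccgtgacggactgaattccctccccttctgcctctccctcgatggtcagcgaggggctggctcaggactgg
The EGR1 window held 2 CArG boxes, CCATATTAGG from 105 to 96 and CCATATATGG from 83 to 74 bases before the start, and 2 matches to TGACGT on the opposite strand, from 136 to 131 and from 67 to 62 bases before it. The IER2 window held 1 match to CCGGAAG, on the opposite strand from 27 to 21 bases before the start. The letters of these motifs were not found in the SPRY4 window. Of all 35116 windows of this length in the table, 1.16% held a CArG box, 8.52% CCGGAAG and 7.1% TGACGT. Windows for DUSP6, SPRY2 and SPRED1, the other members with windows kept, held 0 matches. These matches describe letters only.

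The largest fold changes among the tested feedback inhibitors were in DUSP4 and SPRY4, which stood higher in all 3 labelled overexpression libraries, while the immediate early genes EGR1 and IER2 stood lower in all 3. None of the 9 tested members passed an adjusted p of 0.05 in limma-trend, against 1.14% of all tested genes, 0.529% higher and 0.608% lower. At an unadjusted p under 0.05 there were 4 members, DUSP4, SPRY4, EGR1 and IER2, where 17.7% of all tested genes were. There was no overlap between the groups for 5 of the 9, DUSP4, SPRY4 and ETV5 on the higher side and EGR1 and IER2 on the lower, where 24.1% of all tested genes did not overlap, 14.2% on the higher and 9.9% on the lower side. The median log2 fold change of the 9 was 0.02, beside 0.05 over all tested genes. It is the value of SPRED1 alone, with 4 members above it and 4 below, and it moved to 0.20 without control vector replicate 3. Fold changes are on the log2(FPKM + 0.5) scale, which understates the change of low genes. In RNA from whole cultures, fewer cells with a message and less of it per cell cannot be told apart.

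In the controls the mean levels ran from ETV4 (28.5 FPKM) over IER2 (21.3), ETV5 (18.2), DUSP6 (13.6), EGR1 (11.8), DUSP4 (6.41), SPRY2 (5.61), SPRY4 (4.37) and SPRED1 (1.03) to DUSP5 (0.161). The library values of neighbours in this order overlapped for DUSP6 and EGR1, EGR1 and DUSP4, DUSP4 and SPRY2, and SPRY2 and SPRY4, and not for the other neighbours. In the labelled overexpression libraries IER2 stood below ETV5 and DUSP6 by its mean of 15.6 FPKM, EGR1, at 5.28 FPKM, below DUSP4 at 10.9 and SPRY4 at 6.28 FPKM, and SPRY2, at 4.63 FPKM, below SPRY4. Of these pairs IER2 and DUSP6 overlapped, as did EGR1 and SPRY4.

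**Figure D1:**
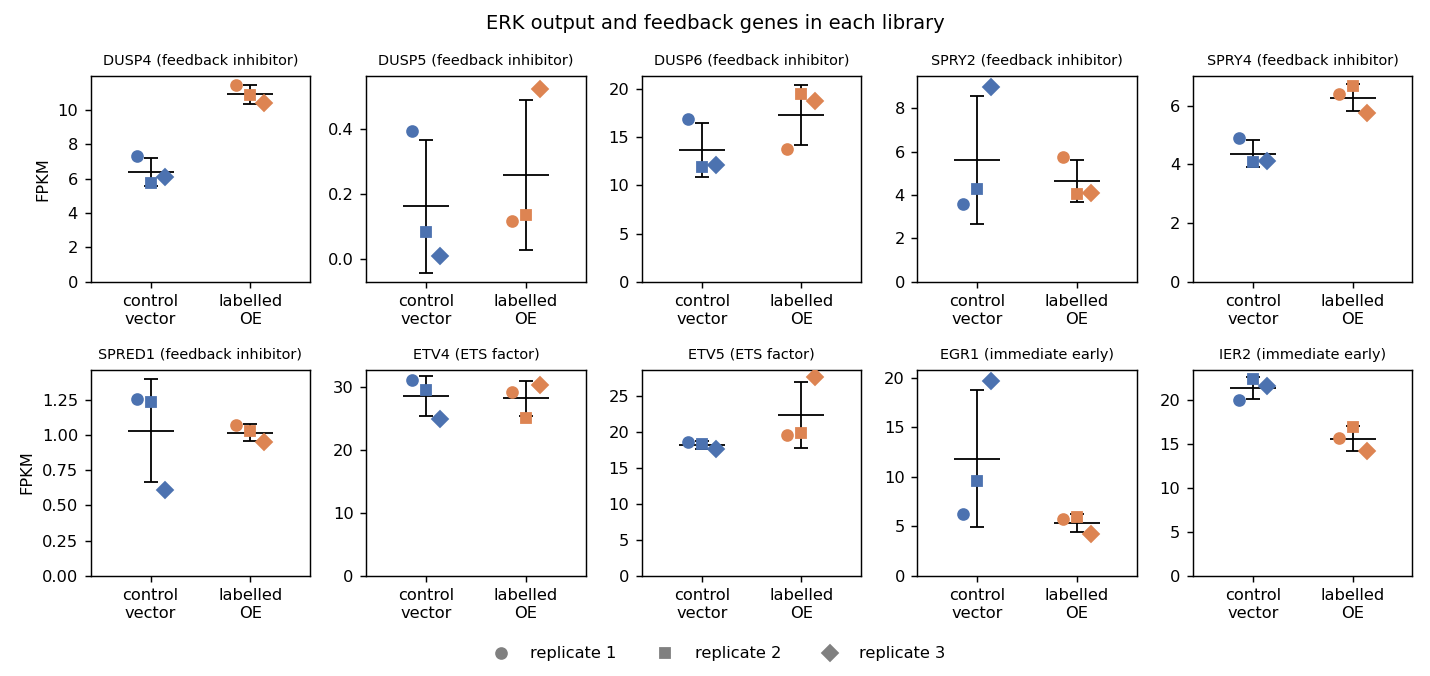
FPKM of the 10 genes in each library, with a marker shape for each replicate number, and the mean and SD (n = 3) of the control vector (blue) and labelled overexpression (orange) libraries. Each panel has its own axis. DUSP4 and SPRY4 lie higher and EGR1 and IER2 lower in the labelled overexpression libraries without overlap, and control vector replicate 3 stands apart for EGR1 and SPRY2.

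DUSP4, a nuclear phosphatase that dephosphorylates ERK and JNK, stood at 7.33, 5.77 and 6.12 FPKM in replicates 1, 2 and 3 of the control vector and at 11.4, 10.8 and 10.4 FPKM in those of the labelled overexpression. The lowest labelled overexpression library was above the highest control, and replicates within a group lay close together. The group means, 6.41 ± 0.820 against 10.9 ± 0.532 FPKM (SD, n = 3 each), rested on 1219 to 3702 fragments per library. The log2 fold change was 0.73 (SE 0.15, 95% interval 0.39 to 1.06), and the adjusted p in limma-trend was 0.0564, just outside the threshold. DUSP4 passed under 3 alternatives, with only genes of at least 5 FPKM tested (limma-trend adjusted p = 0.0313, where 4.49% of tested genes passed), with values rescaled to a common total (adjusted p = 0.0358, 1.56% passed) and with array weights (adjusted p = 0.0389, 1.9% passed). No member passed with a pseudocount of 0.1 or 1 (1.05% and 1.24% of tested genes passed), with median-of-ratios factors (1.27%), with the gene length trend removed (0.922%) or in limma-voom on recovered fragments (0.908%), nor without a filter or a mean-variance trend, where 0% passed. The gene (ENSG00000120875, GRCh38 chromosome 8, 29333064 to 29350684, minus strand) overlaps no other gene of the table.

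DUSP6, the cytoplasmic phosphatase that acts on ERK itself, was the most abundant of the 6 inhibitors, at 16.9, 11.9 and 12.1 FPKM in the controls against 13.7, 19.4 and 18.8 FPKM. Control vector replicate 1 was high and labelled overexpression replicate 1 low within their groups, so the groups overlapped. The log2 fold change was 0.33 (SE 0.18, 95% interval -0.08 to 0.75, limma-trend adjusted p = 0.376). The interval covers both equal levels and the difference seen for DUSP4. A noncoding gene on the other strand, ENSG00000274021, overlaps the 5′ part of DUSP6 (ENSG00000139318, GRCh38 chromosome 12, 89347235 to 89352501, minus strand) and had a log2 fold change of 0.26 (SE 0.19).

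DUSP5, a nuclear phosphatase with a preference for ERK, lay near the detection limit and below the filter. Its control level was 0.394, 0.0815 and 0.00909 FPKM, from 45, 6 and 1 fragments, and its labelled overexpression level 0.115, 0.135 and 0.523 FPKM, from 8, 7 and 65 fragments. The values ranged widely within both groups, and the exact two-sided permutation test gave p = 0.5. The smallest value that this test allows with 3 libraries against 3 is 0.1. No difference was detectable beyond the spread within the groups. DUSP5 (ENSG00000138166, GRCh38 chromosome 10, 110497907 to 110511533, plus strand) overlaps no other gene of the table.

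The Sprouty genes, whose proteins restrain RAS activation by receptor tyrosine kinases, did not follow each other. SPRY4 stood at 4.90, 4.09 and 4.11 FPKM in the controls and at 6.41, 6.66 and 5.76 FPKM under labelled overexpression, values that lay above all controls. Its log2 fold change was 0.48 (SE 0.17, 95% interval 0.11 to 0.85, limma-trend adjusted p = 0.181). SPRY4 (ENSG00000187678, GRCh38 chromosome 5, 142310427 to 142326455, minus strand) overlaps SPRY4-AS1 on the other strand, at 0.715, 1.37 and 1.56 FPKM in the controls and 0.819, 0.610 and 0.839 FPKM in the others. That antisense gene, which was not tested, did not show SPRY4's pattern.

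SPRY2 stood at 3.59, 4.26 and 8.98 FPKM in the controls and at 5.74, 4.05 and 4.11 FPKM under labelled overexpression. The high value of control vector replicate 3 set the control mean, and the other 5 libraries lay between 3.59 and 5.74 FPKM. The log2 fold change was -0.17 (SE 0.30, 95% interval -0.84 to 0.51, limma-trend adjusted p = 0.820). It was 0.20 without control vector replicate 3 and 0.04 with array weights. SPRY2 (ENSG00000136158, GRCh38 chromosome 13, 80335976 to 80341126, minus strand) overlaps no other gene. The ratio of SPRY4 to SPRY2 in FPKM was 1.37, 0.958 and 0.458 in the controls and 1.12, 1.65 and 1.40 in the others.

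SPRED1, which brings neurofibromin to RAS at the membrane, was low throughout. Its level was 1.26, 1.23 and 0.612 FPKM in the controls and 1.07, 1.03 and 0.951 FPKM under labelled overexpression. Control vector replicate 3 was the lowest of the 6, the reverse of its place for SPRY2. The log2 fold change was 0.02 (SE 0.27, 95% interval -0.60 to 0.63, limma-trend adjusted p = 0.985), and -0.20 without that library. SPRED1 (ENSG00000166068, GRCh38 chromosome 15, 38252836 to 38357249, plus strand) overlaps no other gene.

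ETV4 and ETV5 encode related ETS transcription factors of the PEA3 group, induced by ERK and able to activate its other targets. ETV4 had the highest level of the 10 genes, at 31.1, 29.5 and 24.9 FPKM in the controls and 29.2, 25.0 and 30.2 FPKM under labelled overexpression, with the groups fully interleaved. Its log2 fold change was -0.02 with a 95% interval of -0.31 to 0.28 (limma-trend adjusted p = 0.963), which leaves out a change of the size measured for DUSP4. ETV5 stood at 18.6, 18.3 and 17.6 FPKM in the controls, the tightest control values of the 10 genes, and at 19.5, 19.8 and 27.6 FPKM in the others. The labelled overexpression libraries all lay above the controls, though only replicate 3 did so by much. The log2 fold change was 0.27 (SE 0.15, 95% interval -0.07 to 0.61, limma-trend adjusted p = 0.385) and 0.11 without labelled overexpression replicate 3. ETV5 (ENSG00000244405, GRCh38 chromosome 3, 186046314 to 186110318, minus strand) overlaps DGKG on the same strand, which lay below 1 FPKM in all 6 libraries. DGKG, which was not tested, was higher without overlap, as ETV5 was. It stood at 0.732, 0.790 and 0.753 FPKM in the controls and 0.942, 0.815 and 0.913 FPKM in the others. ETV4 (ENSG00000175832, GRCh38 chromosome 17, 43527844 to 43579620, minus strand) lies within the span of DHX8, a helicase gene on the other strand with a log2 fold change of -0.09 (SE 0.14).

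EGR1, a zinc finger transcription factor, stood at 6.27, 9.58 and 19.6 FPKM in replicates 1, 2 and 3 of the control vector and at 5.69, 5.92 and 4.25 FPKM in those of the labelled overexpression. The labelled overexpression libraries lay below all controls, but control vector replicate 1 was close to them and replicate 3 far above. Group means were 11.8 ± 6.95 against 5.28 ± 0.905 FPKM (SD, n = 3 each). The coefficient of variation was 58.8% in the controls, a spread reached by 0.586% of the 6142 tested genes with a mean of 5 to 50 FPKM, and 17.1% under labelled overexpression. Its log2 fold change was -0.95 (SE 0.34, 95% interval -1.71 to -0.20, limma-trend adjusted p = 0.191). Without control vector replicate 3 it was -0.53, and without control vector replicate 1 it was -1.31. EGR1 (ENSG00000120738, GRCh38 chromosome 5, 138465479 to 138469303, plus strand) has 1 transcript in the table and overlaps no other gene.

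IER2, a small nuclear protein of the immediate early response, stood at 20.0, 22.4 and 21.6 FPKM in the controls and 15.6, 16.9 and 14.1 FPKM under labelled overexpression. In contrast to EGR1, both groups were tight and no library stood apart. With group means of 21.3 ± 1.23 against 15.6 ± 1.39 FPKM (SD, n = 3 each), the log2 fold change was -0.44 (SE 0.13, 95% interval -0.72 to -0.16, limma-trend adjusted p = 0.126). The noncoding gene CTC-250I14.6 overlaps IER2 (ENSG00000160888, GRCh38 chromosome 19, 13150411 to 13154911, plus strand) on the other strand and followed it, at 30.2, 34.9 and 32.8 FPKM in the controls and 25.3, 25.9 and 22.1 FPKM in the others, with a log2 fold change of -0.41 (SE 0.12). No source used here says whether fragments were assigned by strand, so reads of this pair cannot be told apart.

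**Figure D2:**
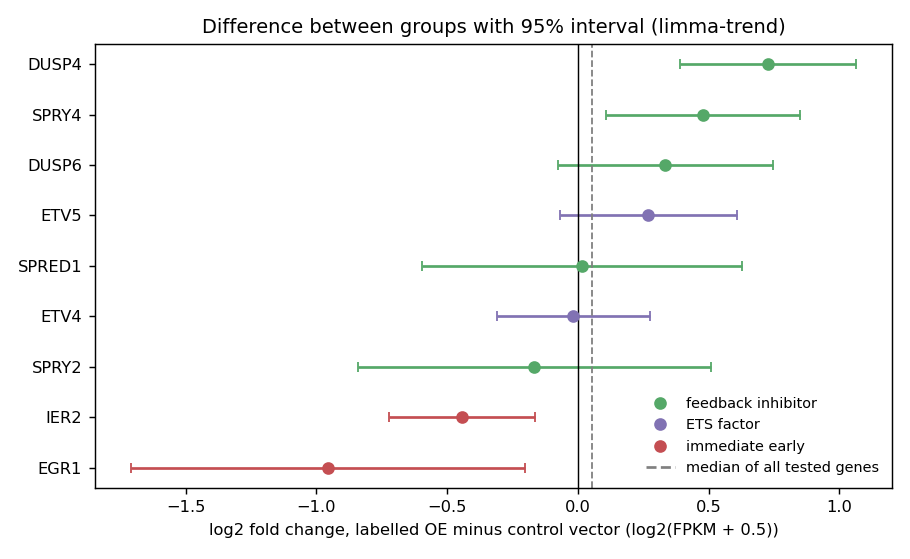
Log2 fold change of the 9 tested genes, labelled overexpression minus control vector, with 95% intervals from limma-trend and colours for the role of each gene. The dashed line is the median of all tested genes, 0.05. The intervals of DUSP4 and SPRY4 lie above 0 and those of EGR1 and IER2 below it, although none passed after adjustment over all genes.

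By role, the 6 feedback inhibitors summed to 34.4, 27.3 and 32.0 FPKM in the controls and 38.5, 42.2 and 40.5 FPKM under labelled overexpression. EGR1 and IER2 together summed to 26.2, 32.0 and 41.2 FPKM in the controls and 21.3, 22.8 and 18.4 FPKM in the others. The ratio of the first sum to the second, which does not depend on the scaling of a library, was 1.31, 0.855 and 0.777 in the controls and 1.81, 1.85 and 2.203 in the others. The ratio was higher in each labelled overexpression library than in any control, and below 1 in control vector replicates 2 and 3. The ETV4 and ETV5 sum overlapped between groups, at 49.8, 47.8 and 42.6 against 48.8, 44.8 and 57.8 FPKM. These sums were formed with the values known and carry no test.

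Leaving out each library in turn, DUSP4 kept a log2 fold change of 0.66 to 0.82, SPRY4 of 0.44 to 0.56 and IER2 of -0.50 to -0.38. The range was wider for EGR1, from -1.31 to -0.53, and crossed 0 for SPRY2, SPRED1 and ETV4. No member passed in any of these 6 fits, in which 0% to 0.887% of tested genes did (0.0215% without control vector replicate 1). The values of EGR1 and SPRY2 moved most with control vector replicate 3.

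**Figure D3:**
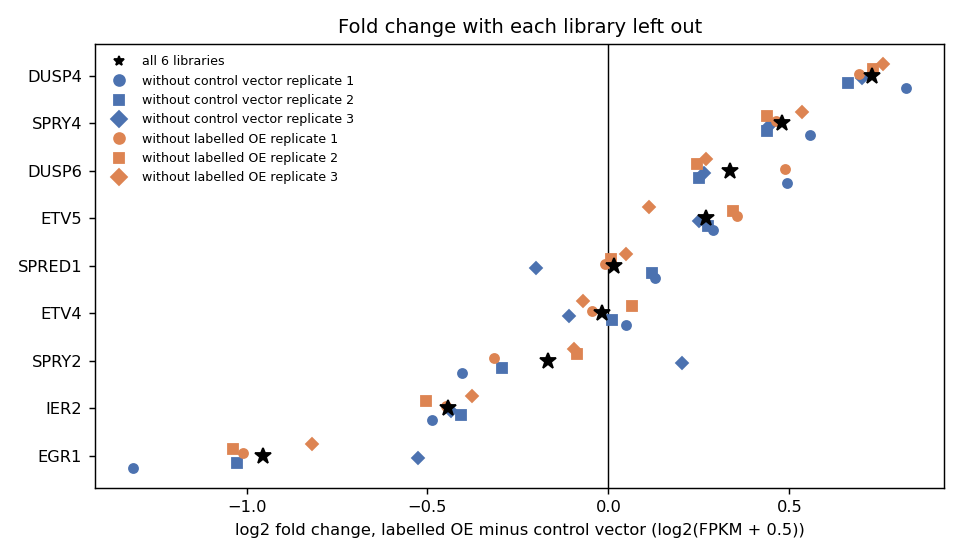
Log2 fold change of the 9 tested genes with all 6 libraries (star) and with each library left out (blue, a control vector library, orange, a labelled overexpression library, shapes as replicate numbers 1, 2 and 3). DUSP4 stays between 0.66 and 0.82, while EGR1 runs from -1.31 to -0.53.

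Among 32 other immediate early genes 18 were tested, of which 1 was lower and 0 higher, where 0.608% of all tested genes were lower and 0.529% higher, and the list's median log2 fold change was 0.14. FOS, a subunit of the AP-1 transcription factor, fell from 15.8, 18.5 and 46.6 FPKM in the controls to 1.72, 1.196 and 1.76 FPKM, a log2 fold change of -3.58 (SE 0.35, limma-trend adjusted p = 0.0150). Its control values had the order of those of EGR1, with replicate 3 highest. The FOS call was lost when control vector replicate 2 or any labelled overexpression replicate was left out (limma-trend adjusted p = 0.0513 to 0.0820), at log2 fold changes of -3.77 to -3.45. In each of these fits 0% of all tested genes passed. JUNB, another AP-1 gene, stood at 41.3, 52.1 and 46.6 FPKM in the controls and 36.0, 33.8 and 26.2 FPKM in the others, without passing (limma-trend adjusted p = 0.109). Of the 18 tested, 3 were lower without overlap, 0 higher and 15 overlapped, where 9.9% of all tested genes were lower and 14.2% higher without overlap.

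Of 27 other delayed outputs 18 were tested, with 1 higher, 0 lower (0.529% and 0.608% of all tested genes) and a median of 0.17. CCND1, which encodes the G1 cyclin D1, rose from 54.2, 55.9 and 61.3 FPKM to 119, 154 and 112 FPKM (log2 fold change 1.15, SE 0.13, limma-trend adjusted p = 0.0215). Its call was lost without control vector replicates 1 or 2 or any labelled overexpression replicate (limma-trend adjusted p = 0.0513 to 0.0820), at log2 fold changes of 1.01 to 1.24. Of all tested genes 0.0215% passed without control vector replicate 1 and 0% in the others of these fits. In 7 of the 18 the labelled overexpression libraries all lay above the controls, and in 1 below, where 14.2% of all tested genes were above and 9.9% below. SPRY1, another Sprouty gene, stood at 1.47, 1.48 and 2.33 FPKM in the controls and 2.96, 3.71 and 3.37 FPKM in the others (log2 fold change 0.79, SE 0.23, limma-trend adjusted p = 0.129). VGF, a secreted neuropeptide precursor known for its induction by nerve growth factor, stood at 7.64, 8.17 and 6.58 against 12.6, 13.3 and 10.3 FPKM (limma-trend adjusted p = 0.0854).

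The other dual-specificity MAP kinase phosphatases gave 3 tested genes of 7, with 0 past the threshold, where 1.14% of all tested genes passed. That count is near the background and no result about the list. DUSP10, which acts mainly on p38 and JNK, stood at 1.43, 2.61 and 3.17 FPKM in the controls and 4.91, 6.01 and 4.39 FPKM in the others (log2 fold change 0.99, SE 0.26, limma-trend adjusted p = 0.104). DUSP16, a JNK phosphatase, had a log2 fold change of 1.02 (SE 0.27, limma-trend adjusted p = 0.103), and passed the filter only through the labelled overexpression libraries. DUSP1, itself an immediate early gene, stood at 6.48, 11.5 and 23.0 FPKM in the controls and 11.9, 13.8 and 12.1 FPKM in the others. Its controls were ordered as those of EGR1, but unlike EGR1 its groups overlapped (log2 fold change 0.06, SE 0.35, limma-trend adjusted p = 0.944).

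Upstream and beside these genes, 0 tested members of any list passed, which at 1.14% of all tested genes is near the background and no result about the lists. The lists held 7 tested growth factor ligands of 38, 12 receptor tyrosine kinases of 21, 23 kinases and adaptors of 32, 11 other negative regulators of 17, and 12 ERK-regulated kinases and transcription factors of 21. Their median log2 fold changes were 0.29, 0.05, 0.25, 0.17 and 0.15, beside 0.05 over all tested genes. The kinase and adaptor list held IQGAP1, a scaffold of the cascade, at 4.59, 5.56 and 5.46 against 8.09, 9.21 and 10.98 FPKM (log2 fold change 0.79, SE 0.17, limma-trend adjusted p = 0.0604). NRAS stood at 36.4, 28.2 and 40.8 against 21.9, 21.8 and 27.0 FPKM (log2 fold change -0.56, SE 0.16, limma-trend adjusted p = 0.123).

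**Figure D4:**
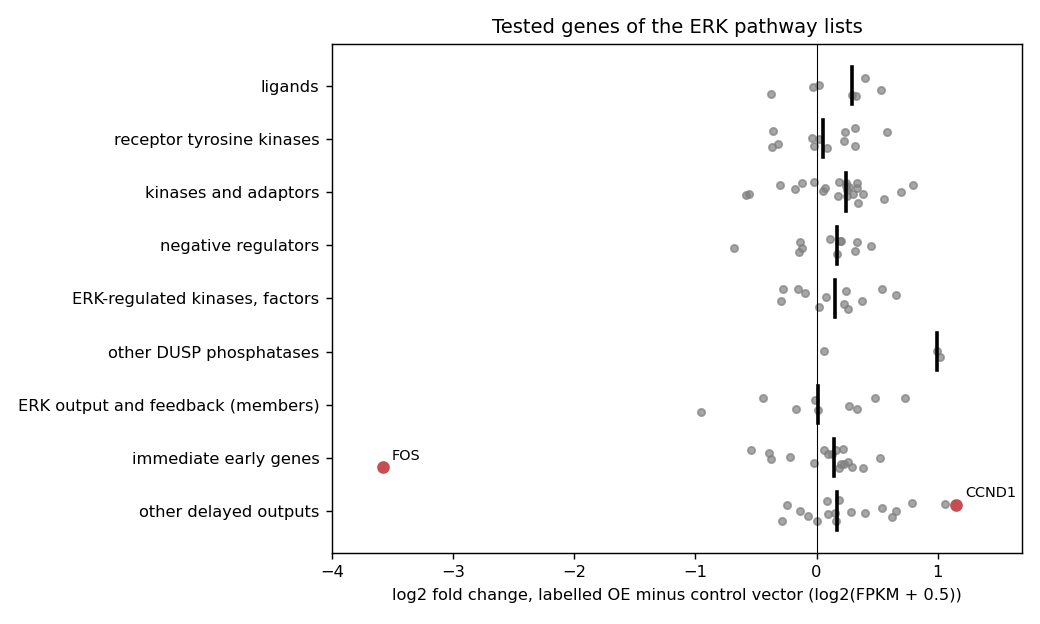
Log2 fold change of each tested gene of the pathway lists (points, spread vertically only to separate them), with the list's median as a bar and genes past an adjusted p of 0.05 in red. FOS at -3.58 and CCND1 at 1.15 are the genes that passed.

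Likeness to a member was measured as the root mean square difference between log2(FPKM + 0.5) profiles over the 6 libraries, each centred on its mean. For EGR1, whose own profile deviated by 0.68 from its mean, the nearest tested coding gene was PLD2, a phospholipase D, at a difference of 0.21, with 2.71, 3.07 and 5.76 FPKM in the controls and 1.97, 2.103 and 1.66 FPKM in the others. RP11-644A7.2, of a type the table gives as TEC, and the noncoding RP11-169I2.3 were next, at 0.21 and 0.22. SPRY2 was most like MACIR, ABHD6 and ATP23, at 0.07, 0.08 and 0.09, each highest in control vector replicate 3. DUSP4 was most like SPTAN1, which encodes a spectrin, at 0.05, then DENND6B and MTHFD1L, at 0.06 and 0.07. DENND6B passed the filter only through the labelled overexpression libraries, and RP11-169I2.3 only through the controls, in each case the group where it was higher. DUSP6 was most like ERI1, GCLC and NT5C1A, at 0.05 each. No other member was among the 3 nearest genes of these 4.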

How the data were processed

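RNA was extracted with a column kit for small inputs, cDNA libraries were made with a SMART-seq kit and sequenced as paired ends, per the labels' protocols. STAR 2.7.9 and featureCounts 2.0.1 are named in the submitters' processing notes, as are the builds hg38 and GRCh38.p13. Their options, strand setting included, are not given in the sources used here. The authors deposited FPKM per gene and library. Each library's FPKM multiplied by gene length (in kilobases) added up to 1000000. Values up to 1000 fragments were multiples of 0.01 fragment in 100.0% of cases, which gave each depth. Of these values 44.2% to 49.0% were whole within 0.001 fragment. The main fit used no count model because the deposited values are FPKM. Unmapped sample columns numbered 0.

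Genes with at least 1 FPKM in at least 3 of 6 libraries entered limma-trend, that is limma 3.58.1 (R 4.3.3) with a mean-variance trend, as log2(FPKM + 0.5) without a block, with Benjamini-Hochberg adjustment over 13984 genes at 0.05. The fit was tested on simulated data. DUSP5, below the filter, was fitted beside the tested genes. Named were all members, up to 4 genes of smallest p per pathway list, genes overlapping a member, and the 3 genes nearest in profile to the 4 most variable members; some are not printed. Members and lists were chosen with earlier results of these data known. The labels do not say whether replicate numbers pair the libraries. The alternatives were other pseudocounts, filters, scalings and weights, no trend, a replicate block, removal of the gene length trend, limma-voom on recovered fragments, and each library left out.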

Additional observations from a re-analysis of the deposited data

How the results depend on the processing

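The 17 alternatives were all run. Of 13984 tested genes 159 passed, 74 higher and 85 lower. The count was 0 without a filter (3538 at an unadjusted p under 0.05) and 0 without the mean-variance trend in limma (2304), 339 with a filter of 5 FPKM, 265 with array weights, and 0 to 124 with a library left out (1665 to 2826 at an unadjusted p under 0.05). Calls were split 167 higher and 51 lower with values rescaled to a common total, which moved the median of all tested genes from 0.05 to 0.17, 59 and 119 with median-of-ratios factors, and 79 and 48 with limma-voom. The number of members past the threshold was 1, DUSP4, with the filter of 5 FPKM, the common total and array weights, at log2 fold changes of 0.73, 0.86 and 0.74, and 0 otherwise, the range with a library left out being 0 to 0. The median of the members was 0.11 without a filter, 0.27 with the filter of 5 FPKM, which left 7 members, 0.13 with the common total, -0.0446 with the gene length trend removed, and -0.0099 to 0.202 with a library left out, beside 0.0158. Of those 7 members SPRY4 passed the filter of 5 FPKM only through the labelled overexpression libraries, where it was higher. Signs turned for members near 0: SPRY2 at 0.0420 with array weights and -0.405 to 0.202 with a library left out, the highest without control vector replicate 3; SPRED1 at -0.0157 with median-of-ratios factors, -0.0322 with array weights, -0.112 with the length trend removed, and -0.201 to 0.129 with a library left out; ETV4 at 0.0941 with the common total, 0.0082 with limma-voom and -0.109 to 0.0654 with a library left out. The cause was not tested. FOS and CCND1 lost their calls without a filter and without the trend (limma-trend adjusted p = 0.132 for both without a filter). DUSP4, DUSP6, SPRY4, ETV5, EGR1 and IER2 kept their sign under all 17. Whether the replicate numbers pair the libraries is not stated. Deviations of same-numbered libraries from their group means correlated across genes at -0.02, 0.10 and 0.12, which does not settle it. Not every library correlated best with its own number. With the replicate block 229 genes and 0 members passed, the members' median was 0.02, and DUSP4 had an adjusted p of 0.0562 in limma-trend. DUSP5 rested on 1 to 65 fragments per library, which limits its precision.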
